A study of Mus musculus with 10 samples.

Results

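The elastic fibre and matrix Gla genes are 10 genes: Eln, Fbn1, Fbln2, Fbln5, Ltbp1, Ltbp3, Ltbp4, Lox, Loxl2 and Mgp. Most encode proteins that build, anchor or cross-link elastic fibres and their microfibrils in the wall of vessels, and Mgp encodes matrix Gla protein. The 10 genes were chosen by name and found by matching the versioned Ensembl identifiers of the deposited tables to mouse gene symbols. The rule uses no measured value, but the genes were named with earlier results of these data known. All 10 were among the 55385 genes listed, and all 10 passed the filter on low counts that left 15043 genes to test. RNA was sequenced from mouse liver endothelial cells, captured from the non-hepatocyte fraction by magnetic beads that bind CD146, which Mcam encodes. The 5 libraries labelled Alk1-HEC-KO carried the genotype label KO, and the 5 Control libraries carried the genotype label WT. The series compares both groups to ask what changes in these cells when Acvrl1 is targeted, the gene for ALK1, through which endothelial cells sense the circulating ligands BMP9 and BMP10. The allele, the Cre driver, the age and sex of the mice and any pooling of animals were not found in the sources used. Nothing in the labels ties a library to an animal of its own, and p-values therefore rest on the spread between libraries, which may be technical.

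The level of Acvrl1 did not follow the knockout label. It was 247.6 ± 6.94 CPM (the count of a gene scaled to the library total; mean ± SD over 5) in libraries labelled Alk1-HEC-KO and 127 ± 8.73 CPM (SD, n = 5) in the Control libraries (log2 fold change 0.96 ± 0.05 SE, edgeR adjusted p = 1.7e-07; exact two-sided permutation p = 0.0079, the smallest that 5 against 5 can give). Gene totals cannot tell reads of intact exons from reads of a deleted allele. The group is therefore named by its label, as the knockout-labelled libraries, and each direction compares those libraries with the Control libraries. Library totals ran from 23489494 to 23602771 estimated counts, so depth was nearly equal. The summed level of the 10 endothelial markers was 14690 to 15770 CPM in the knockout-labelled libraries and 16870 to 19090 CPM in the Control libraries, and all 10 markers passed the filter and were present in every library. Of these markers 3 rose, 4 fell and 3 did not pass. Pecam1, Tie1 and Mcam rose, and Kdr, Tek, Stab2 and Clec4g fell. Pecam1 averaged 1724 CPM in the knockout-labelled libraries and 1464 CPM in the Control libraries, and Clec4g 3067 and 4760 CPM. The lower sum therefore does not stand for every endothelial marker. Mcam, the gene of the capture target, rose to 540.7 ± 35.8 CPM in the knockout-labelled libraries, against 330.1 ± 44.4 CPM in the Control libraries (SD, n = 5 each; log2 fold change 0.71 ± 0.09 SE, edgeR adjusted p = 1.1e-04), and its part in the differences of the 10 genes was not tested. In bulk samples, fewer cells of a type and less RNA per cell cannot be told apart, and this holds for every difference given here.

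Elastic fibres form when tropoelastin, the soluble product of Eln, is deposited on a scaffold of fibrillin microfibrils and then cross-linked by copper-dependent lysyl oxidases. Fibulins and latent TGF-beta binding proteins bring tropoelastin, the microfibrils and the cross-linking enzymes together, and the same binding proteins hold latent TGF-beta in the matrix. Mgp encodes matrix Gla protein, which is made active by vitamin K-dependent carboxylation, restrains calcification of vessel walls and binds BMP ligands. In cultured endothelial cells, signalling through ALK1 is known to induce Mgp.

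The windows around the starts of 3 of the 4 genes called below are shown so that the promoters of genes that moved can be compared. They come from RefSeq on GRCm38.p6, each 300 bases long, from 250 bases before to 50 bases after a transcript start, 5′ to 3′ on the strand of the gene. Windows were used for 6 of the 10 genes, 10 windows in all. These genes were Fbln2, Fbln5, Fbn1, Ltbp1, Ltbp3 and Ltbp4. Capitals mark the letters GGCGCC, the GC-rich element bound by BMP-activated SMADs, which reads the same on both strands, and the letters CAGAC or their reverse complement GTCTG, a SMAD box. These motifs do not overlap each other in the windows printed. Fbln5 has both starts shown, at chr12:101818435-101818734 and chr12:101819070-101819369 on the minus strand.
Fbln5 window 1: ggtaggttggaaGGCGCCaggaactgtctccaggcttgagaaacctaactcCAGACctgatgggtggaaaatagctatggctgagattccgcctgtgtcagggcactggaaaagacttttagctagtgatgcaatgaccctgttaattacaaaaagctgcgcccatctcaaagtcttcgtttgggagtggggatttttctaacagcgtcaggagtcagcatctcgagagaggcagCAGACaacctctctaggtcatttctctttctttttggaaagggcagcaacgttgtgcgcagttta
Fbln5 window 2: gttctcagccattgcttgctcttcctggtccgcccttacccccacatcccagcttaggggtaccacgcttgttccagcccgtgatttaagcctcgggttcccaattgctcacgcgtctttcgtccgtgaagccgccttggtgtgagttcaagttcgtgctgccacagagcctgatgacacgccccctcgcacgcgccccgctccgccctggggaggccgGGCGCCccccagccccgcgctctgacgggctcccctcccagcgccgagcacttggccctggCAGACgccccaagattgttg
Fbn1 is shown at chr2:125506389-125506688 on the minus strand.
Fbn1: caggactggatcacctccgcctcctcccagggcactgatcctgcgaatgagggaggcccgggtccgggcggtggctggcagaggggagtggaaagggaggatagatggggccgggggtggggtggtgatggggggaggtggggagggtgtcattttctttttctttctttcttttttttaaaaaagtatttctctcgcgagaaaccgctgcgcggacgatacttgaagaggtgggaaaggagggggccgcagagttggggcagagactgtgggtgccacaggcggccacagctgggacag
Ltbp1 has the starts chr17:75005279-75005578 and chr17:75178531-75178830 on the plus strand, an upstream and an internal one.
Ltbp1 window 1: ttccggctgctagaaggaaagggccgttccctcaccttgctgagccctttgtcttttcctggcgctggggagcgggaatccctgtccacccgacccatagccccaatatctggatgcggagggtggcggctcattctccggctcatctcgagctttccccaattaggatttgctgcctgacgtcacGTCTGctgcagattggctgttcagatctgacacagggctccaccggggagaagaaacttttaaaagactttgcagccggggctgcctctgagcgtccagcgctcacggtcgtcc
Ltbp1 window 2: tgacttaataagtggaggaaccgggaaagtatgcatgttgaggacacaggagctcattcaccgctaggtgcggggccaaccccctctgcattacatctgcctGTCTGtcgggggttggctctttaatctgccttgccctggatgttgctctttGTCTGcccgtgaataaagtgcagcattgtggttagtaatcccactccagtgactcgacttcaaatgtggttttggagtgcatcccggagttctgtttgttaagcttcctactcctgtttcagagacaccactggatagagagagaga
GGCGCC stood 1 time in each Fbln5 window and in neither the Fbn1 window nor the Ltbp1 windows. It also stood in windows of Ltbp4, a gene that was not called, though not in every one of them. The Fbln2 and Ltbp3 windows, of genes also not called, did not hold it. Of all 32851 windows in the table, 11.9% held it, so its presence does not set the called genes apart. CAGAC or GTCTG stood 2 times and 1 time in the Fbln5 windows, 1 time and 2 times in the Ltbp1 windows, and was not among the letters of the Fbn1 window. Of all windows 49.6% held that motif, so its presence is common. Another motif searched on both strands, GGAA, the core bound by ETS factors of endothelial cells, was in 96.0% of all windows and is not marked. A match is a description of the letters only.

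Of the 10 genes, 4 were called in the knockout-labelled libraries (edgeR quasi-likelihood test, adjusted p under 0.05), against 19.7% of all 15043 genes tested. Fbn1, Fbln5 and Mgp rose, where 10.6% of all genes did, and Ltbp1 fell, where 9.08% of all genes did. The median log2 fold change of the 10 genes was 0.28, beside 0 over all genes tested. In 2 of the 10, Fbn1 and Fbln5, the CPM of the groups did not overlap, against 15.5% of all genes tested, a share close to that background. The calls of Fbn1, Fbln5 and Mgp held in each of the 24 alternative analyses, whereas that of Ltbp1 held in 12 of 24. Values in the next paragraphs are CPM per library, in the order of libraries 1 to 5 of each group.

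**Figure D1:**
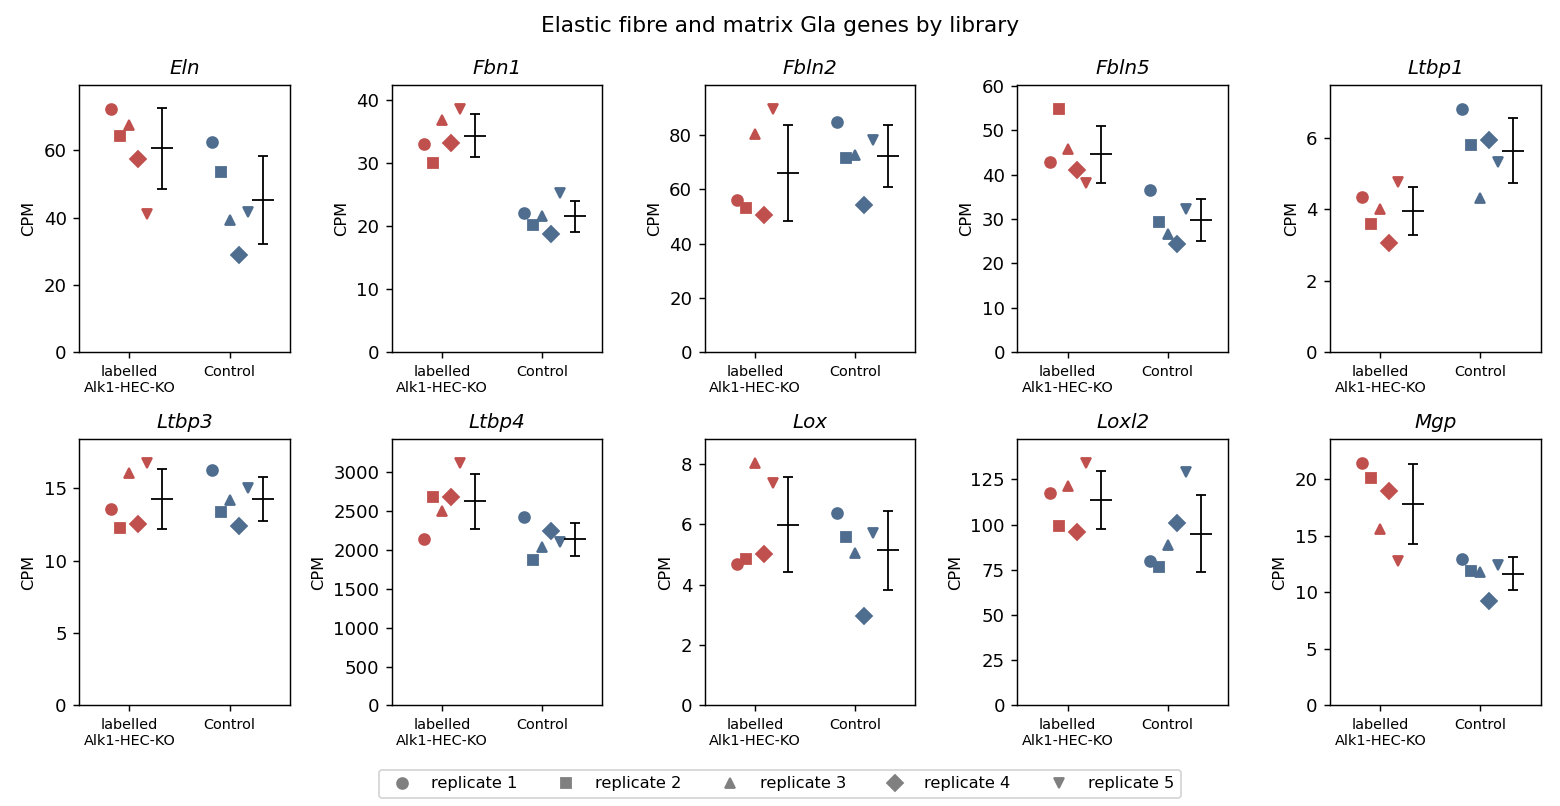
CPM (vertical axis, starting at 0) of the 10 genes in each library, with the libraries labelled Alk1-HEC-KO at the left and Control libraries at the right of each panel; symbols mark the replicate number, and the black bar is the mean ± SD (n = 5). For Fbn1 all knockout-labelled points, 29.9 to 38.5 CPM, lie above all Control points, 18.7 to 25.2 CPM, while the points of Ltbp3 and Fbln2 intermingle.

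The scaffold genes were Eln and Fbn1. Eln, which encodes tropoelastin, was at 72.3, 64.4, 67.6, 57.5 and 41.1 CPM in the knockout-labelled libraries and at 62.4, 53.6, 39.2, 28.7 and 41.6 CPM in the Control libraries. The first 3 knockout-labelled libraries lay above every Control library, but knockout-labelled library 5 lay below 3 of the Control libraries, so the groups overlapped. The difference was 0.42 ± 0.22 on the log2 scale (SE, 95% interval -0.08 to 0.93) and did not pass the test (edgeR adjusted p = 0.22). Its range over the alternatives was 0.22 to 0.81, and it passed in none of the 24 (adjusted p from 0.09 to 0.58), while edgeR gave it an unadjusted p of 0.0825. Eln (ENSMUSG00000029675.12) lies at chr5:134702593-134747323 on the minus strand of GRCm38.

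Fbn1 encodes fibrillin-1, the backbone of microfibrils, whose mutation in humans causes Marfan syndrome. It was at 33.0, 29.9, 36.8, 33.2 and 38.5 CPM in the knockout-labelled libraries, against 22.0, 20.1, 21.6, 18.7 and 25.2 CPM in the Control libraries. Every knockout-labelled library was above every Control library. Fbn1 rose by 0.67 ± 0.09 on the log2 scale (SE; 1.59-fold, edgeR adjusted p = 2.0e-04), the largest difference relative to its standard error among the 10 genes. The gene (ENSMUSG00000027204.13) lies at chr2:125300594-125507993 on the minus strand. Of its 12128 exonic bases, 2442 overlap Gm9913 on the opposite strand, and Gm9913 was at 0 to 0.747 CPM in the knockout-labelled libraries and 0 to 0.648 CPM in the Control libraries. The other fibrillin gene listed with it, Fbn2, next to 5.82 and 3.45 TPM of Fbn1 in the knockout-labelled and Control libraries, averaged 0.0316 TPM in the knockout-labelled libraries and 0.0193 TPM in the Control libraries and did not pass the filter, so fibrillin transcripts here were almost wholly those of Fbn1.

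Of the fibulins, Fbln5 rose and Fbln2 did not pass the test. Fbln5 encodes fibulin-5, which binds tropoelastin and lysyl oxidase-like enzymes and is needed for elastic fibre assembly in mice. It was at 42.8, 54.7, 45.9, 41.1 and 38.1 CPM in the knockout-labelled libraries and at 36.5, 29.2, 26.7, 24.4 and 32.3 CPM in the Control libraries. The lowest knockout-labelled library, library 5, was still above the highest Control library, library 1. The rise was 0.58 ± 0.12 on the log2 scale (SE; 1.49-fold, edgeR adjusted p = 0.0049). Fbln5 (ENSMUSG00000021186.9) lies at chr12:101746565-101819055 on the minus strand.

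Fbln2 encodes fibulin-2, a partner of elastin and of basement membrane proteins. Its values were 56.1, 53.0, 80.3, 50.7 and 89.6 CPM in the knockout-labelled libraries and 85.1, 71.8, 72.6, 54.2 and 78.4 CPM in the Control libraries. Knockout-labelled libraries 3 and 5 were high and the other 3 were low, and the Control values spanned most of that range. The difference was -0.13 ± 0.18 on the log2 scale (SE, 95% interval -0.56 to 0.29, edgeR adjusted p = 0.67). Fbln2 (ENSMUSG00000064080.12) lies at chr6:91212455-91272540 on the plus strand. The ratio of Fbln5 to Fbln2 in TPM, the deposited abundance per transcript length, was 0.898 ± 0.298 in the knockout-labelled libraries and 0.502 ± 0.0499 in the Control libraries (SD, n = 5 each). It was 0.937, 1.31, 0.703, 1.01 and 0.532 in knockout-labelled libraries 1 to 5, and the highest Control value, 0.555 in library 4, was above that of knockout-labelled library 5.

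The latent TGF-beta binding proteins moved differently from one another. Ltbp1, which anchors latent TGF-beta to fibrillin and fibronectin, was at 4.34, 3.58, 4.02, 3.07 and 4.77 CPM in the knockout-labelled libraries, against 6.81, 5.81, 4.32, 5.95 and 5.34 CPM in the Control libraries. Control library 3 lay within the knockout-labelled values, and the other 4 Control libraries lay above all of them. Ltbp1 fell by 0.51 ± 0.15 on the log2 scale (SE; 1.43-fold lower, edgeR adjusted p = 0.034). Its level was low, and the call ended in 12 of 24 alternatives (adjusted p from 0.013 to 0.11 over all of them). These include the fits without knockout-labelled library 2, 3 or 4 (adjusted p = 0.073, 0.056 and 0.077) and without Control library 1, 2 or 4 (adjusted p = 0.078, 0.065 and 0.075). With scaling by library size alone it was -0.47 (edgeR adjusted p = 0.054). Ltbp1 (ENSMUSG00000001870.16) lies at chr17:75005568-75392512 on the plus strand.

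Ltbp4, which binds fibulin-5 and guides elastin deposition as well as holding latent TGF-beta 1, was by far the most abundant of the 10 genes. It was at 2138, 2681, 2495, 2685 and 3119 CPM in the knockout-labelled libraries and at 2428, 1867, 2034, 2246 and 2100 CPM in the Control libraries. Knockout-labelled libraries 2 to 5 lay above all Control libraries, and knockout-labelled library 1 lay among them. The difference of 0.30 ± 0.10 on the log2 scale (SE, 95% interval 0.07 to 0.52; 1.23-fold) just missed the threshold (edgeR adjusted p = 0.051). It passed in 7 of 24 alternatives, among them DESeq2 (adjusted p = 0.019) and the fits without knockout-labelled library 1 (0.36, adjusted p = 0.015) or Control library 1 (0.35, adjusted p = 0.033). Ltbp4 (ENSMUSG00000040488.17) lies at chr7:27305136-27337692 on the minus strand.

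Ltbp3 binds latent TGF-beta and is known for its part in bone and tooth growth. It was at 13.6, 12.3, 16.1, 12.5 and 16.7 CPM in the knockout-labelled libraries and at 16.2, 13.4, 14.2, 12.4 and 15.0 CPM in the Control libraries. The groups covered the same range, and the difference was within 95% limits of -0.25 and 0.25 on the log2 scale (edgeR adjusted p = 1.0). Ltbp3 (ENSMUSG00000024940.11) lies at chr19:5740904-5758532 on the plus strand.

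**Figure D2:**
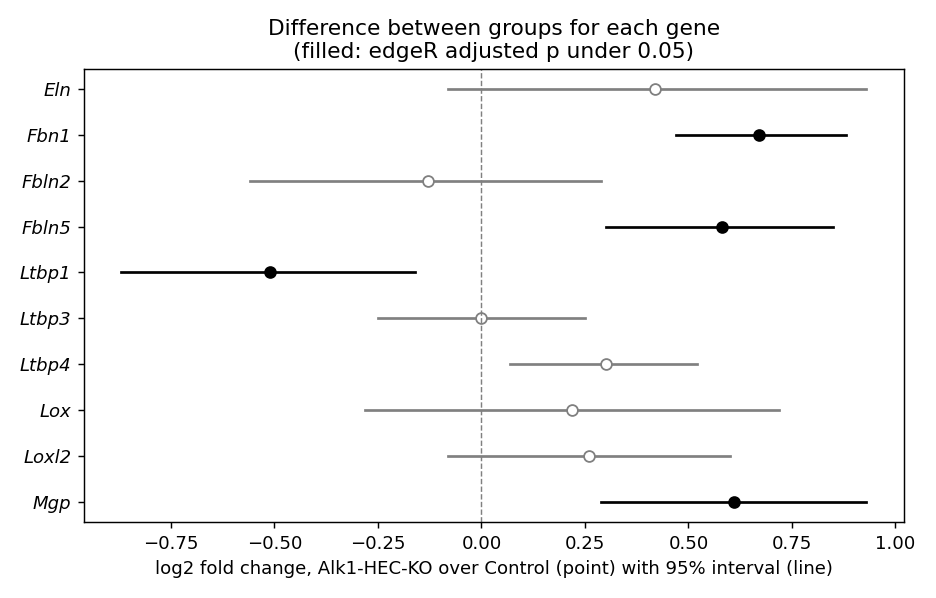
Log2 fold change of each gene, knockout-labelled over Control libraries (horizontal axis), with its 95% interval as a line; filled points passed the edgeR test at an adjusted p under 0.05. Fbn1, Fbln5 and Mgp lie to the right of 0 and Ltbp1 to the left, and the interval of Eln, from -0.08 to 0.93, spans 0.

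Neither lysyl oxidase among the 10 genes passed the test. Lox encodes lysyl oxidase, which oxidises lysines of elastin and collagen, and was at 4.70, 4.85, 8.04, 5.00 and 7.36 CPM in the knockout-labelled libraries and at 6.39, 5.58, 5.06, 2.97 and 5.72 CPM in the Control libraries. Knockout-labelled libraries 3 and 5 were above all Control libraries, and the other 3 lay within the Control range. The difference was 0.22 ± 0.22 on the log2 scale (SE, 95% interval -0.28 to 0.72, edgeR adjusted p = 0.54). Loxl2, a relative that cross-links collagen IV of basement membranes, was at 118, 99.4, 121, 96.0 and 134 CPM in the knockout-labelled libraries and at 80.1, 76.6, 88.6, 100.8 and 129 CPM in the Control libraries. Control libraries 1 to 3 lay below every knockout-labelled library, and Control library 5 lay above 4 of them. Its difference was 0.26 ± 0.15 (SE, 95% interval -0.08 to 0.60, edgeR adjusted p = 0.27), and it became 0.39 with an adjusted p of 0.033 without Control library 5. Loxl2 (ENSMUSG00000034205.16) lies at chr14:69609068-69695834 on the plus strand, and Lox (ENSMUSG00000024529.14) lies on chromosome 18 from 52516067 to 52529867 on the minus strand.

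An antisense gene, Gm27177, shares exonic bases with Loxl2 on the opposite strand and was named after its values were seen. Over both overlapping genes, 308 of the 5405 exonic bases of Loxl2 were shared. Gm27177 was at 1.73 to 11.1 CPM in the knockout-labelled libraries and at 11.6 to 20.6 CPM in the Control libraries, so the groups did not overlap. Its difference of -1.16 on the log2 scale did not pass the test (edgeR adjusted p = 0.074), and passed with DESeq2 (adjusted p = 0.032) and limma-voom (adjusted p = 0.041). Whether strand was used in counting is not given in the sources used here, and reads from shared bases cannot be told apart without it.

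Mgp, the matrix Gla gene, rose. It was at 21.4, 20.1, 15.6, 19.0 and 12.8 CPM in the knockout-labelled libraries and at 12.9, 11.9, 11.8, 9.22 and 12.4 CPM in the Control libraries. Knockout-labelled libraries 1 to 4 lay above all Control libraries, and knockout-labelled library 5 lay just below Control library 1. The rise was 0.61 ± 0.14 on the log2 scale (SE; 1.53-fold, edgeR adjusted p = 0.0082). Without Control libraries 4 and 5 it was 0.53 with an adjusted p of 0.048, the highest over the 24 alternatives. Mgp (ENSMUSG00000030218.2) lies at chr6:136872435-136875823 on the minus strand.

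Levels between genes were compared in TPM. Ltbp4 averaged 1255 ± 222 TPM in the knockout-labelled libraries and 989.8 ± 56.4 TPM in the Control libraries (SD, n = 5 each), which placed it at rank 85 of the 55385 genes in the knockout-labelled libraries and at rank 132 in the Control libraries. Mgp came next, with 67.3 ± 12.9 TPM in the knockout-labelled libraries and 41.5 ± 7.43 TPM in the Control libraries. In the knockout-labelled libraries Fbln2 at 37.1 ± 10.5, Loxl2 at 36.5 ± 5.85, Eln at 31.2 ± 6.03 and Fbln5 at 31.2 ± 5.14 TPM followed, and these neighbours did not differ beyond their SDs. In the Control libraries Mgp and Fbln2 (38.1 ± 7.42 TPM) were neighbours within their SDs, as were Loxl2 at 28.5 ± 6.83, Eln at 21.5 ± 7.57 and Fbln5 at 19.0 ± 4.05 TPM. Ltbp3, Fbn1, Lox and Ltbp1 were low in both groups, between 1.33 and 6.91 TPM in the knockout-labelled libraries and between 1.80 and 7.11 TPM in the Control libraries. The ratio of Mgp to Eln was 2.18 ± 0.290 in the knockout-labelled libraries and 2.04 ± 0.392 in the Control libraries (SD, n = 5 each), and its ranges overlapped.

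Within each family the make-up could be read from the TPM shares, on which no test was run. Ltbp4 made up 99.1 to 99.4% of the TPM of the 4 latent TGF-beta binding protein genes in the knockout-labelled libraries and 98.8 to 99.2% in the Control libraries. The ratio of Ltbp4 to Ltbp1 was 634 to 1068 in the knockout-labelled libraries and 357 to 625 in the Control libraries, so the groups did not overlap but nearly met. Among the 5 lysyl oxidases, Loxl2 made up 57.2 to 59.7% of the TPM in the knockout-labelled libraries and 43.0 to 55.1% in the Control libraries. Loxl3 made up 28.2 to 32.1% in the knockout-labelled libraries and 36.7 to 45.6% in the Control libraries, so the shares of both genes did not overlap between the groups. Both are parts of the same total and depend on each other, and the CPM of Loxl2 itself overlapped. Among the 5 fibulins, Fbln5 made up 15.0 to 27.5% in the knockout-labelled libraries and 12.8 to 17.6% in the Control libraries, and Efemp2, which encodes fibulin-4, made up 30.6 to 36.1% in the knockout-labelled libraries and 36.3 to 44.8% in the Control libraries.

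**Figure D3:**
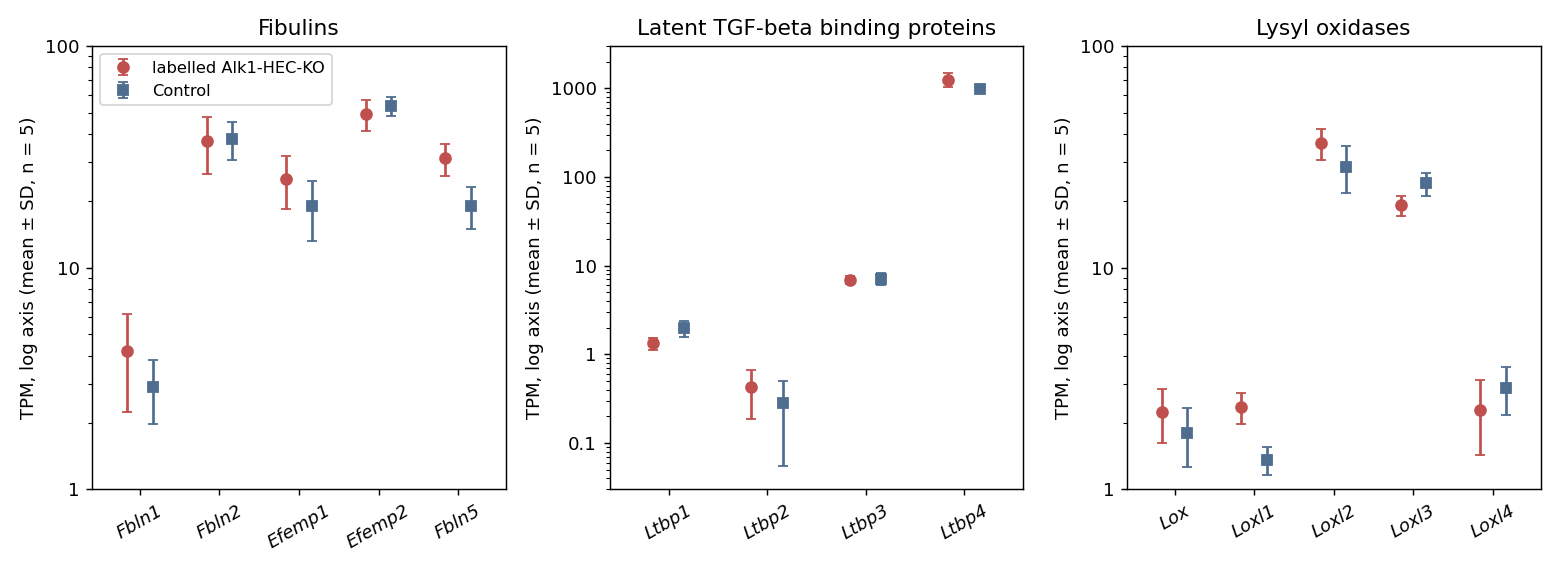
TPM on a log axis (mean ± SD, n = 5) of the fibulins, the latent TGF-beta binding proteins and the lysyl oxidases, with the libraries labelled Alk1-HEC-KO as circles at the left and Control libraries as squares at the right of each gene. Ltbp4, at 1255 TPM in the knockout-labelled and 989.8 TPM in the Control libraries, stands far above the other binding protein genes, and Loxl2 and Loxl3 stand above the other lysyl oxidases.

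Other genes of elastic fibres and microfibrils moved both ways. Of the 23 tested of 25 listed, 6 rose, 2 fell and 15 did not pass, with a median log2 fold change of 0.20. Adamts10, a matrix protein that binds fibrillin-1, rose to 60.2 ± 3.35 CPM in the knockout-labelled libraries, against 40.7 ± 6.90 CPM in the Control libraries (log2 fold change 0.57 ± 0.10 SE, edgeR adjusted p = 0.0016). Hmcn1, which encodes the large fibulin-related protein hemicentin-1, rose by 0.78 ± 0.14 on the log2 scale. Bgn, the proteoglycan biglycan, fell by 0.57 ± 0.07 to 949.5 ± 54.2 CPM in the knockout-labelled libraries, against 1408 ± 109 CPM in the Control libraries, with knockout-labelled library 1 the lowest of its group. Loxl3, a lysyl oxidase-like enzyme, fell by 0.43 ± 0.08. Among the relatives of the 10 genes, which were named after their values were seen, Loxl1, the lysyl oxidase that fibulin-5 tethers to elastin, rose by 0.69 ± 0.15 (edgeR adjusted p = 0.0055), a call that ended when the mean of 12 fibroblast and stellate markers entered the fit as a covariate (0.65, adjusted p = 0.081). Ltbp2, which binds fibrillin-1, was at 1.04 CPM in the knockout-labelled libraries and 0.454 CPM in the Control libraries, and its call at 1.18 ± 0.35 ended in 10 of its 23 alternatives. Efemp2 was at -0.25 ± 0.08 (edgeR adjusted p = 0.056) and passed in 7 of 24 alternatives, and Fbln1 and Efemp1 were at 0.43 ± 0.29 and 0.34 ± 0.23 (edgeR adjusted p = 0.34 and 0.35).

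Genes that prepare the cross-linking enzymes moved both ways. Of the 12 genes of copper supply and lysyl oxidase processing, 3 rose, 1 fell and 8 did not pass, and the median was -0.01. Bmp1, the protease that cleaves the propeptide of lysyl oxidase, was at 12.2, 14.8, 14.3, 15.6 and 14.9 CPM in the knockout-labelled libraries, against 3.66, 4.25, 2.97, 3.60 and 3.63 CPM in the Control libraries. The groups lay far apart, and Bmp1 rose by 1.98 ± 0.11 on the log2 scale (SE; 3.96-fold, edgeR adjusted p = 1.4e-07). Postn encodes periostin, a matrix protein that binds Bmp1, and rose by 1.36 ± 0.20. Fn1, which encodes fibronectin, rose by 0.60 ± 0.16, a call that ended in 6 of its 24 alternatives. Slc31a1, the copper importer CTR1, fell by 0.31 ± 0.07, and at -0.20 it did not pass with limma on log2 TPM at either pseudocount (adjusted p = 0.11).

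A further list held genes that cleave elastin, inhibit such cleavage or bind elastin fragments. Of these, 3 of 17 tested rose, 2 fell and 12 did not pass, with a median of -0.02. Of the 3 that rose, Timp3 and Timp2 encode inhibitors. Timp3, a matrix-bound inhibitor of metalloproteinases, rose to 1718 ± 64.8 CPM in the knockout-labelled libraries, against 1227 ± 89.1 CPM in the Control libraries (log2 fold change 0.49 ± 0.06 SE, edgeR adjusted p = 1.1e-04). Timp2 rose by 0.63 ± 0.10, and Mmp2, a gelatinase, rose by 0.70 ± 0.19 over a low level of 2.09 CPM in the Control libraries. The Mmp2 call ended in 3 of 24 alternatives, the replicate block (0.71, edgeR adjusted p = 0.062), the fit without knockout-labelled library 3 (0.60, adjusted p = 0.054) and the same covariate of fibroblast and stellate markers (0.41, adjusted p = 0.32). Ctsl, the lysosomal protease cathepsin L, fell by 0.36 ± 0.07. The other gene that fell, the protease gene Ctsk, was named after its values were seen (-0.55 ± 0.16, edgeR adjusted p = 0.028).

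Partners of the latent TGF-beta binding proteins moved both ways as well. Among 13 genes there were 3 that rose, 2 that fell and 8 that did not pass, and the median was 0.17. Tgfb2, a ligand stored in latent form, fell by 1.95 ± 0.16 to 4.33 ± 1.02 CPM in the knockout-labelled libraries, against 16.8 ± 2.35 CPM in the Control libraries (edgeR adjusted p = 3.9e-06). Tgfbi, a matrix protein named for its induction by TGF-beta, was at 71.5, 60.2, 57.2, 66.1 and 44.0 CPM in the knockout-labelled libraries, against 36.0, 38.8, 40.7, 46.3 and 33.9 CPM in the Control libraries. Knockout-labelled libraries 1 to 4 lay above all Control libraries, and the rise was 0.61 ± 0.12 on the log2 scale (SE; edgeR adjusted p = 0.005). Itgb8, a subunit of an integrin that activates latent TGF-beta, rose by 1.0 ± 0.21 over a low level of 2.24 CPM in the Control libraries. With the fibroblast and stellate covariate neither passed, Tgfbi at 0.57 (edgeR adjusted p = 0.076) and Itgb8 at 1.06 (adjusted p = 0.056). Furin, a protease that cleaves the precursor of TGF-beta, rose by 0.19 ± 0.05, a call that ended in 12 of its 24 alternatives.

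Mgp rose while many genes of the vitamin K cycle and of other Gla proteins fell. Of the 16 tested of 20 listed, 9 fell and 7 did not pass, against 9.08% of all genes that fell, and the median was -0.62. At an unadjusted p under 0.05 edgeR found 11 lower and 0 higher. DESeq2 called 9 lower and 0 higher, and limma-voom 6 lower and 0 higher. Gas6, a vitamin K-dependent ligand of TAM receptors, was at 412, 403, 439, 371 and 422 CPM in the knockout-labelled libraries and at 689, 732, 608, 807 and 625 CPM in the Control libraries. The groups did not overlap, and Gas6 fell by 0.76 ± 0.08 on the log2 scale (SE; edgeR adjusted p = 3.0e-05). Nqo1, a quinone reductase, fell by 1.27 ± 0.14, Prrg3, which encodes a membrane Gla protein, fell by 0.66 ± 0.12, and Aifm2, a vitamin K reductase, fell by 0.57 ± 0.13, a call that ended in 4 of 24 alternatives. Ggcx, the carboxylase that modifies Gla proteins, fell by 0.26 ± 0.07 (edgeR adjusted p = 0.017) and Vkorc1, which recycles vitamin K, fell by 0.24 ± 0.07 (edgeR adjusted p = 0.024), both named after their values were seen. Those small calls ended in 4 and 9 of 24 alternatives. The remaining 3, F2, F9 and Proz, encode clotting proteins made by hepatocytes, and their calls ended in 13 of 24, 14 of 23 and 12 of 24 alternatives. Of 10 hepatocyte markers 3 fell, Cyp2e1, Cyp3a11 and Apoa2, and 7 did not pass. DESeq2 called 5 lower and limma-voom 2. Cyp2e1 and Cyp3a11 averaged 14.8 and 12.8 CPM in the knockout-labelled libraries, against 145.7 and 109.6 CPM in the Control libraries. For both, the groups did not overlap. The Apoa2 call ended in 13 of 24 alternatives. Alb and Trf were at -0.08 and -0.05 on the log2 scale. The summed level of the 10 markers was 602 to 1320 CPM in the knockout-labelled libraries and 635 to 2136 CPM in the Control libraries. The part of hepatocyte RNA in the fall of F2, F9 and Proz was not tested.

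**Figure D4:**
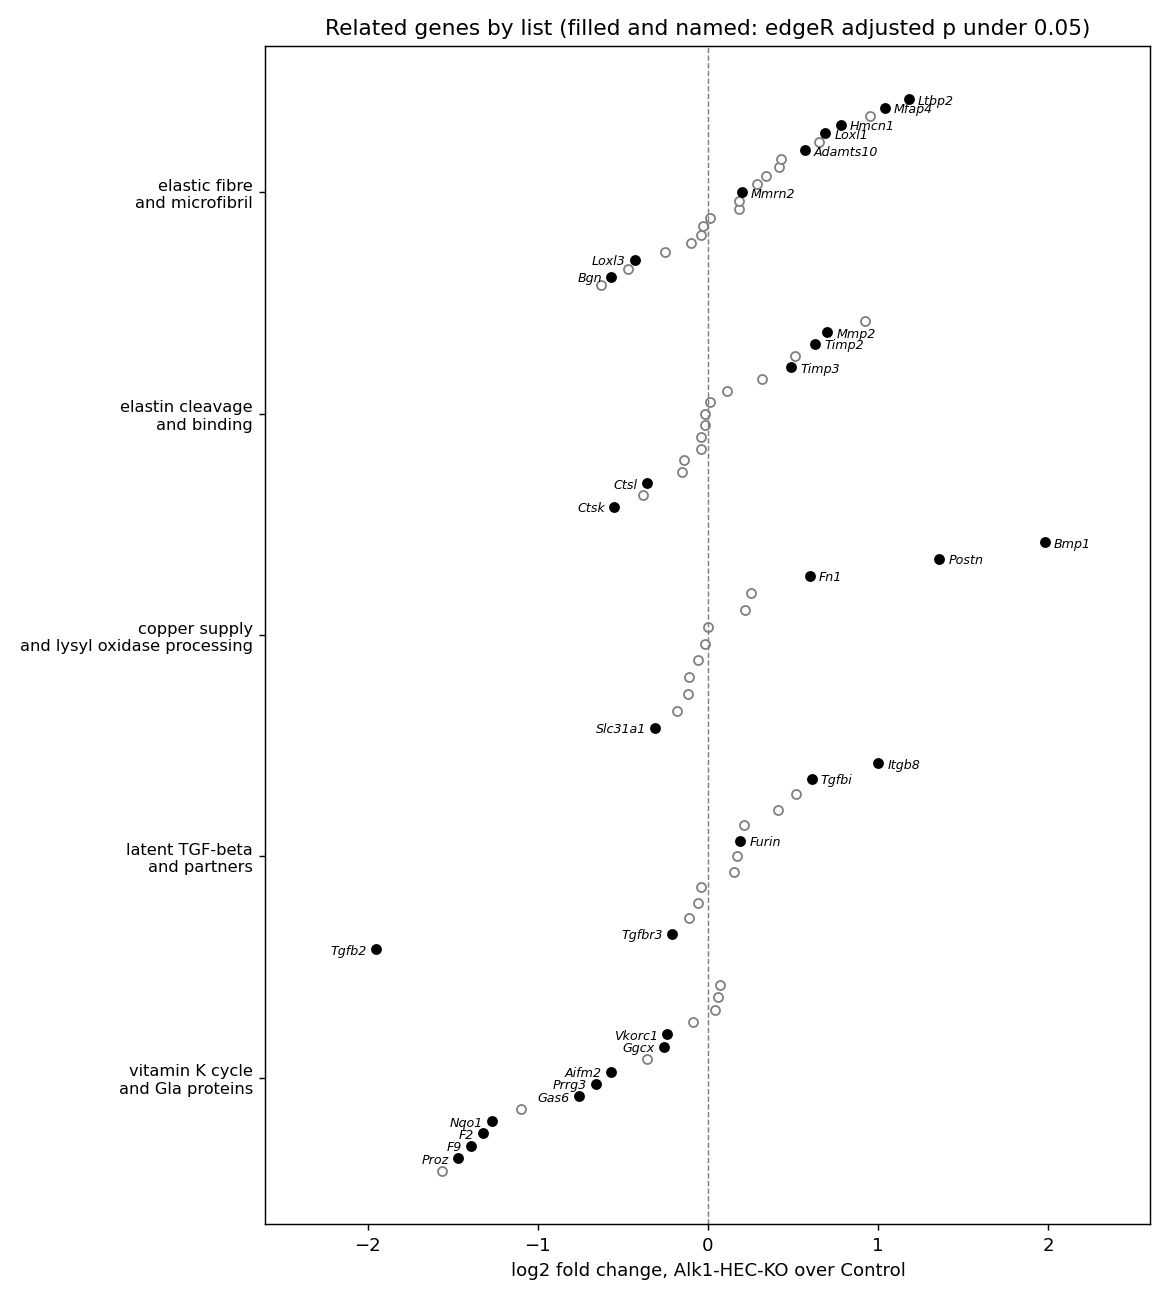
Log2 fold change, knockout-labelled over Control libraries (horizontal axis), of every tested gene of 5 related lists, ordered within each list; filled and named points passed the edgeR test at an adjusted p under 0.05. Called genes of the vitamin K list all lie left of 0, as does Tgfb2 at -1.95, while Bmp1, at 1.98, lies far to the right.

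Fibroblasts, stellate cells and smooth muscle make most of these matrix proteins in many tissues, so their markers were read beside the 10 genes. Of 12 fibroblast and stellate markers 4 rose and 8 did not pass, and their summed level was 210 to 288 CPM in the knockout-labelled libraries and 122 to 220 CPM in the Control libraries. The 4 that rose were Col1a1, Col1a2, Col3a1 and Ngfr, and the call of Ngfr ended in 11 of its 23 alternatives. Col1a1, a fibrillar collagen chain, was at 26.3 to 32.9 CPM in the knockout-labelled libraries and 9.50 to 10.3 CPM in the Control libraries. Col1a2 rose by 1.45 on the log2 scale. Col3a1 averaged 70.2 CPM in the knockout-labelled libraries and 29.9 CPM in the Control libraries. The sums differed mainly through these collagens. Of the 8 markers that did not pass, Dcn, Lum, Reln and Lrat were at 0.18, 0.14, 0.02 and -0.13 on the log2 scale. Pdgfrb, Colec11, Pdgfra and Des were at 0.71, 0.46, 0.45 and 0.28. With the mean of these markers as a covariate, Fbn1 was at 0.59 (edgeR adjusted p = 0.018), Fbln5 at 0.81 (adjusted p = 0.0046) and Mgp at 0.90 (adjusted p = 0.0068) on the log2 scale, whereas Ltbp1 at -0.69 no longer passed (adjusted p = 0.074) and Loxl2 turned to -0.08. This covariate was itself mostly higher in the knockout-labelled libraries, at 2.70 to 3.51 log2 CPM, against 2.31 to 3.105 in the Control libraries. The fit therefore cannot fully separate it from the group. Without the 3 collagens in the covariate, a choice made after the data were seen, Ltbp1 was at -0.60 (adjusted p = 0.033) and Loxl2 at 0.12. That covariate ran from 1.83 to 2.87 log2 CPM in the knockout-labelled libraries and from 1.77 to 2.82 in the Control libraries.

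Of 10 smooth muscle and pericyte markers 1 rose and 9 did not pass, with sums of 72.0 to 114 CPM in the knockout-labelled libraries and 53.4 to 102 CPM in the Control libraries. The marker that rose was Rgs5, with 1 knockout-labelled library well above the others. Its log2 fold change of 0.75 did not pass without the filter on low counts (0.73, edgeR adjusted p = 0.077) or with the fibroblast and stellate covariate (0.21, adjusted p = 0.40). Of 10 mesothelial and portal fibroblast markers 3 rose, 1 fell and 6 did not pass, and the sums were 583 to 702 CPM in the knockout-labelled libraries and 144 to 218 CPM in the Control libraries. Cd34, which endothelial cells also express, was at 551.8 ± 43.2 CPM in the knockout-labelled libraries and 64.1 ± 21.8 CPM in the Control libraries. It made up most of the sum in each knockout-labelled library, but less than Gpm6a and the other markers together in each Control library. Gpm6a, the marker that fell, was at 28.4 ± 3.55 CPM in the knockout-labelled libraries and 62.4 ± 13.2 CPM in the Control libraries. The other markers that rose were Dpt, whose call ended in 3 of 23 alternatives, and Pi16, whose call ended in 5 of 24. Of the 6 bile duct markers tested 5 rose, Cdh1, Epcam, Spp1, Sox9 and Krt19. Sums over all 7 listed were 380 to 649 CPM in the knockout-labelled libraries and 195 to 278 CPM in the Control libraries. Spp1 made up most of each sum, at 327 to 565 CPM in the knockout-labelled libraries and 161 to 235 CPM in the Control libraries. Cdh1, Epcam, Sox9 and Krt19 were at 1.08, 1.14, 1.09 and 0.84 on the log2 scale. Of 8 macrophage markers edgeR called 0, with 1 higher at an unadjusted p under 0.05 and 0 called by DESeq2 or limma-voom, and the sums were 404 to 1020 CPM in the knockout-labelled libraries and 441 to 1393 CPM in the Control libraries. No marker in any of these lists was at 0 in all libraries. The part of bile duct, smooth muscle and mesothelial RNA in the differences of the 10 genes was not tested. That of fibroblast and stellate RNA was not settled by the covariate fits.

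Among endothelial zones, 6 of 10 arterial and portal vein markers rose and 1 fell, and 6 of 7 central vein markers fell. The summed level of the arterial and portal markers was 1440 to 1704 CPM in the knockout-labelled libraries and 1142 to 1575 CPM in the Control libraries, and that of the central vein markers was 788 to 968 CPM in the knockout-labelled libraries and 1706 to 2480 CPM in the Control libraries. The groups that differed in Fbn1, Fbln5 and Mgp thus also differed in zone markers. Within the knockout-labelled group, library 5 had the highest arterial and portal sum, 1704 CPM, the highest Fbn1, and the lowest Fbln5 and Mgp. The highest Control sum, 1575 CPM, was that of library 2. There the marker Gja4 was at 700 CPM, against 225 to 284 CPM in the other Control libraries. The part of these markers in the rise of Fbn1, Fbln5 and Mgp was not tested.

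**Figure D5:**
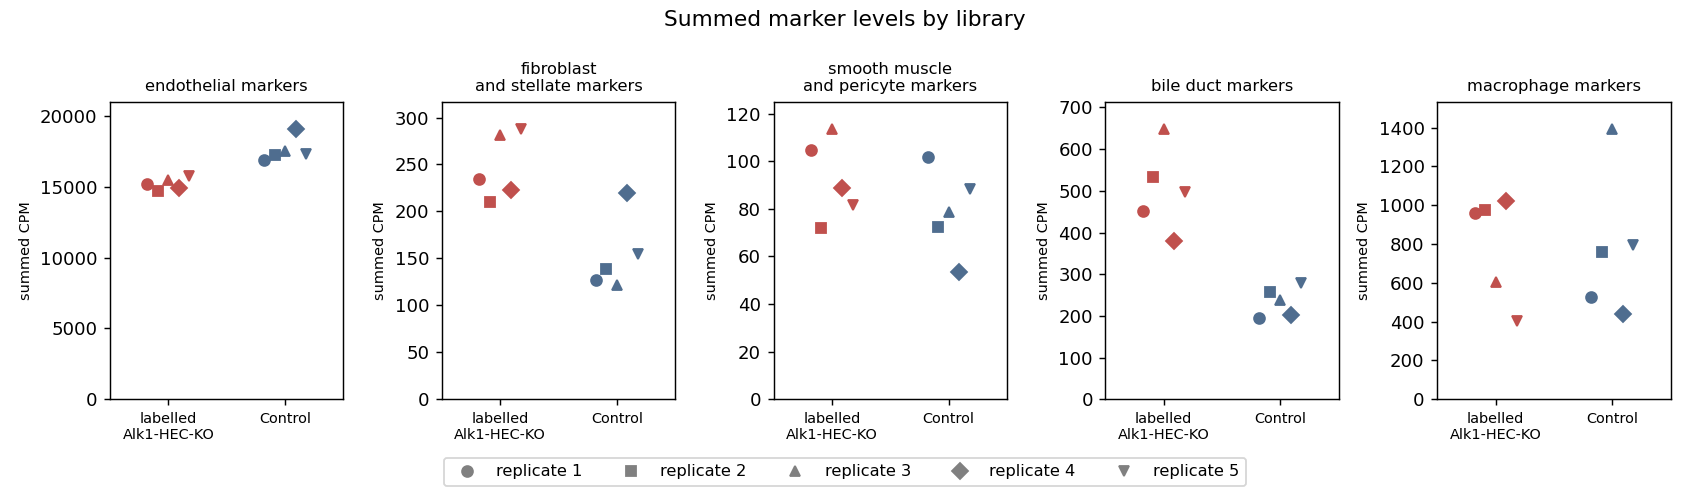
Summed CPM (vertical axis, starting at 0) of 5 marker lists in each library, with the libraries labelled Alk1-HEC-KO at the left and Control libraries at the right; symbols mark the replicate number. Bile duct sums, which are mostly Spp1, do not overlap between the groups, while macrophage and smooth muscle sums do. The bile duct sums are 380 to 649 CPM in the knockout-labelled and 195 to 278 CPM in the Control libraries.

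In the knockout-labelled group the 10 genes did not all vary in the same direction from library to library. Correlation between the genes was not tested. Knockout-labelled library 5 had the lowest Eln, Fbln5 and Mgp of its group and the highest Fbn1, Fbln2, Ltbp1, Ltbp3, Ltbp4 and Loxl2. Control library 1 had the highest Eln, Fbln2, Fbln5, Ltbp1, Ltbp3, Ltbp4, Mgp and Lox of the Control libraries. Control library 4 had the lowest Eln, Fbn1, Fbln2, Fbln5, Ltbp3, Mgp and Lox among them. Its TMM scaling factor of 0.943, the lowest of the 10 libraries, raises CPM rather than lowering it. Mitochondrial genes made up 6.43% of its counts, against 4.27 to 4.74% in the other Control libraries and 3.45 to 4.32% in the knockout-labelled libraries. The part of that share in these low values was not tested. Within the knockout-labelled group Eln thus spanned 41.1 to 72.3 CPM and Mgp 12.8 to 21.4 CPM, whereas Fbn1 spanned only 29.9 to 38.5 CPM.

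For each gene, the gene with the most similar profile was found by the Euclidean distance between centred log2 CPM values over the 10 libraries, among genes of at least 5 CPM on average. Fbn1 lay nearest to Ldb2 (distance 0.22, where the median over all genes was 1.23), and Fbln5 lay nearest to Gprc5c (0.35, median 1.20). Ltbp4 lay nearest to Hspg2, the gene of perlecan, a basement membrane proteoglycan (0.27, median 0.80). Ltbp3 lay nearest to P3h3, a collagen prolyl hydroxylase (0.23), and Loxl2 to Ncapg2 (0.34). The nearest profiles of Ltbp1, Mgp and Fbln2 were Btbd8 (0.40), Traf5 (0.45) and Fhl1 (0.47). Eln and Lox had no near profile by comparison, with Stox2 at 0.67 and Palm at 0.66. These distances include the difference between groups.

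The deposited counts and TPM together gave the mean transcript length of each gene in each library, weighted by the abundance of its transcripts, a readout that was chosen after the data were seen. Of the 12574 genes tested on it, limma called 0 (0.0%) at an adjusted p under 0.05 and 689 at an unadjusted p under 0.05. The mean length of Fbln5 transcripts was 2533 ± 39 nt in the knockout-labelled libraries and 2602 ± 39 nt in the Control libraries (SD, n = 5 each; limma adjusted p = 0.78), and that of Eln was 3363 ± 41 nt in the knockout-labelled libraries and 3459 ± 88 nt in the Control libraries (adjusted p = 0.91). Ltbp1, whose 2 starts are shown above, averaged 5099 ± 712 nt in the knockout-labelled libraries and 4646 ± 787 nt in the Control libraries (adjusted p = 0.98), a wide spread in both groups. Mgp was at 617 nt in every library, the length of its protein-coding transcript. The longer transcript of Loxl2, of 5316 nt, made up 99.2 to 100% of Loxl2 in the knockout-labelled libraries and 99.6 to 100% in the Control libraries.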

How the data were processed

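Libraries of liver endothelial RNA were made for the BGISeq-500 instrument, per the labels' protocols. The submitters' processing notes name Trim Galore 0.6.4, kallisto 0.4.6 and the build GRCm38.p6. The authors deposited, for each library, expected counts (estimated, not always whole) and TPM per gene. The sources used here do not give the annotation release, the summing of transcripts to genes or the use of strand. Symbols and coordinates came from GENCODE M21, in which 55144 of 55385 genes matched by stable identifier.

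The rounded counts entered edgeR 4.0.16 under R 4.3.3 (filterByExpr, minimum count 10; TMM; robust quasi-likelihood test of all 10 libraries without covariates; Benjamini-Hochberg adjustment over all genes tested; threshold 0.05). CPM used TMM-scaled totals. The filter kept between 99.87 and 99.9% of the counts of each library. Counting error is small for abundant genes and larger for genes near 1 CPM. No pair of libraries within a group agreed within sampling noise (chi-square per degree of freedom from 11.39 to 32.56), so all were kept. An interval of 95% used the standard error with the residual degrees of freedom. Mean transcript length came from counts divided by TPM and was tested with limma 3.58.1. In genes with 1 transcript, the recovered effective length departed from a straight line in the annotated length by a fraction of at most 0.000223. The procedure was tested on simulated data.

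The 10 genes, the 14 related lists and the tests were chosen with earlier results of these data known. Genes were named by a rule: the 10 genes, Acvrl1, up to 4 called genes per list by smallest p (or the 2 smallest where none was called), and the nearest profile of each gene. Any other gene was named after its values were seen. A gene of 1 related list was left out of it and is not reported here. Replicate numbers were taken from the titles. Alternatives were DESeq2 1.42.0, limma-voom, other scaling and filters, limma on log2(TPM + 1) and log2(TPM + 0.1), a replicate block, a fibroblast covariate, transcript length offsets, and libraries left out.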

Additional observations from a re-analysis of the deposited data

Results flagged for a closer look

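In 152 groups of 5 libraries, 2 for each of 76 named genes, 5 had 1 library standing apart from the rest by Dixon's criterion, which chance gives in about 1 in 20 groups. Bgn, the gene of biglycan, was at 853.9 CPM in knockout-labelled library 1, where the other 4 lay between 962 and 985 CPM. Rgs5, a pericyte marker, was at 42.5 CPM in knockout-labelled library 3, where the next was at 29.1 CPM and the lowest at 24.0 CPM.

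The other 3 all concerned knockout-labelled library 5, and these genes were picked after their values were seen. Msln, the mesothelial marker mesothelin, was at 15.2 CPM there, with the next at 7.35 CPM and the lowest at 5.30 CPM. Upk3b, another mesothelial marker, was at 36.4 CPM, with the next at 18.2 CPM and the lowest at 11.6 CPM. Mfap5, which encodes a microfibril-associated glycoprotein, was at 3.30 CPM, with the next at 1.52 CPM and the lowest at 0.846 CPM. The same library also had the highest Fbln1, at 10.96 CPM, and the highest Efemp1, at 34.1 CPM, of its group. Whether mesothelial RNA in that library adds to the elastic fibre genes was not tested.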

How the results depend on the processing

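Fbn1, Fbln5 and Mgp stayed past the threshold with the same sign in all 24 alternatives, and Acvrl1 did as well. The count of genes called over all genes, 2959, became 1757 with the fibroblast and stellate covariate and 1940 without Control libraries 4 and 5, a fit with fewer libraries, and 2315 to 2870 with each library left out. The 1 gene of the 10 that fell, Ltbp1, left a count of 0 with library size alone, with limma on log2 TPM at either pseudocount, with the fibroblast and stellate covariate and without Control libraries 4 and 5, and a count of 0 to 1 with each library left out. The cause was not tested. Signs turned for Ltbp3, whose difference was near 0 (0.04 with library size alone, -0.07 to 0.05 with each library left out), for Loxl2 with the covariate (-0.08), and for Adgre1, a macrophage marker (-0.05 without Control libraries 4 and 5, -0.01 to 0.44 with each library left out). Msln and Upk3b, not called, ran from -0.06 to 0.63 and from -0.14 to 0.49 with each library left out, and turned without knockout-labelled library 5.

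With the replicate number as a block, 2567 genes and 3 of the 10 were called, 3 higher and 0 lower, and Ltbp1 had an adjusted p of 0.064. The labels do not say that a number marks a shared animal or day. Deviations of same-numbered libraries from their group means correlated at -0.196, 0.35, 0.015, 0.108 and 0.284, and 2 of 5 knockout-labelled libraries correlated best with their own number, so the numbers were not taken to pair the libraries.

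Depth limits the genes near 1 CPM, Ltbp2 and Mfap5 among them, and Ltbp1 and Lox at 3 to 8 CPM are less certain than Ltbp4.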
